A study of Bombyx mori with 3 samples.

Results

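Lipases and carbohydrate-digesting enzymes of the silkworm midgut were followed on 3 dual-colour arrays that compared larvae fed phoxim, an organophosphate insecticide, with larvae fed water-treated leaves. Members were the gene probes whose name or best protein match contained lipase, amylase, glucosidase, maltase, sucrase, trehalase, galactosidase, mannosidase, fructofuranosidase or glucanase, without the words inhibitor, chitinase or UDP, and whose spot carried the intensity mark of the deposited files on at least 1 array. Of 23229 gene probes, 130 matched by name and 42 of these were members. The mark was present on all 3 arrays for 37 members, which were tested, and on 1 or 2 arrays for 5 members, which are described by their values only. The remaining 88 name matches carried the mark on no array. The mark means that the brighter channel reached an intensity of 400. Just inside this limit lay sw00954, sw11824 and sw01530, with highest intensities of 406, 451 and 474, and just outside it lay 3 phospholipase probes with highest intensities of 371, 346 and 341.

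Bombyx mori larvae of strain P50 received mulberry leaves dipped for 1 min in phoxim at 4 µg/mL from day 3 of the fifth instar, and midguts were dissected 24 h later. Control larvae of the same strain and stage received leaves dipped in water. Each experiment used 30 larvae, and the design text describes the replicates as biological, without saying whether larvae were pooled. Each array carried 1 phoxim RNA and 1 control RNA, so that every ratio below is phoxim over control within an array.

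The midgut epithelium of a leaf-eating caterpillar secretes the enzymes that break food polymers into absorbable units. Lipases release fatty acids from the acylglycerols and galactolipids of the leaf, and phospholipases act on phospholipids. Amylases cut starch, alpha-glucosidases split maltose and sucrose, and beta-glucosidases release glucose from cellobiose and from plant glucosides. Trehalase hydrolyses trehalose, the main sugar of insect haemolymph. Some proteins with these names work inside cells: glucosidase II and several mannosidases trim the sugar chains of new glycoproteins in the secretory pathway. The word rule gathers both kinds.

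The direction of replicate 2 is not settled by the sources. Its file header places phoxim in Cy3 and control in Cy5 and states the ratio as phoxim over control, whereas the labels place phoxim in Cy5 on every array and the design text excludes dye swaps. Over all gene probes, the log2 ratios of replicate 2 as deposited correlated with those of replicates 1 and 3 at r = -0.47 and r = -0.45, while replicates 1 and 3 correlated at 0.42. Over the 3964 tested probes the correlations were 0.62 between replicates 1 and 2, 0.26 between replicates 2 and 3, and 0.18 between replicates 1 and 3. These are correlations across probes, which are not independent replicates. Most gene probes carried no intensity mark, and such dim spots make up most of the set of all gene probes. The 95th percentile of the negative control spots was 307, 348 and 340 in the header's Cy3 channel on replicates 1, 2 and 3. In the header's Cy5 channel it was 200, 164 and 87. The part of dye in the correlations over all gene probes was not tested. The headers were followed, and the values with the sign of replicate 2 turned are given beside the main results.

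Between 18.7% and 20.3% of the gene probes carried the mark on an array. Midgut markers were present: of 135 probes for aminopeptidase N, V-ATPase, carbonic anhydrase, peritrophin, mucin, trypsin and chymotrypsin, 69 were marked on at least 1 array and 60 were tested. With the header directions 4 of the 60 rose and 1 fell, beside 0.505% and 0.177% of all tested probes. In limma 19 had an unadjusted p below 0.05, beside 15.2%. On all 3 arrays 20 were higher and 5 lower, beside 23.0% and 14.3%, and the median log2 ratio was 0.096. Markers of fat body and haemolymph were present as well and differed between the channels. Of 16 tested probes of that list, out of 35 on the array, 10 rose after phoxim with the header directions. Of all 3964 tested probes, 20 rose (0.505%). The summed intensity of the list per array was 16076 to 50867 in control and 39955 to 201677 in phoxim. For muscle markers, 14 of 57 probes were tested and none passed in limma (9 had an unadjusted p below 0.05), with 10 higher on all 3 arrays, a median log2 ratio of 0.52, and summed intensities of 65538 to 83704 in control and 88469 to 120588 in phoxim. For haemocyte markers, 6 of 42 probes were tested and 1 rose, beside the same 0.505% over all tested probes. Of the 6 haemocyte probes, 5 were higher on all 3 arrays, and the median log2 ratio was 0.60. Their list had summed intensities of 10148 to 12898 in control and 12024 to 14271 in phoxim. None of the 10 silk gland probes and not the single Malpighian tubule probe was tested, and no list had a probe at or below 0 in both channels of all arrays. The part of these other tissues in the results below was not tested. In bulk tissue, fewer cells of a type and less RNA per cell cannot be told apart.

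Of the tested members, 1 passed the threshold, an adjusted p of 0.05 in limma over all tested probes. It was sw13529, a lipase, and it was higher after phoxim. Over all tested probes 27 passed, which is 0.681%, with 0.505% higher and 0.177% lower. With replicate 2 turned, no probe passed in limma, and 29 of all tested probes and 0 members had an unadjusted p below 0.05. At an unadjusted p below 0.05, the fit with the header directions placed 8 members higher and 2 lower, against a background of 15.2% in either direction, 10.7% higher and 4.54% lower. The log2 ratio was above 0 on all 3 arrays for 10 members and below 0 on all 3 for 4, where the shares over all tested probes were 23.0% and 14.3%. With replicate 2 turned, 4 members were higher on all 3 arrays and 1 was lower, where the shares over all tested probes were 7.54% and 7.24%.

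**Figure D1:**
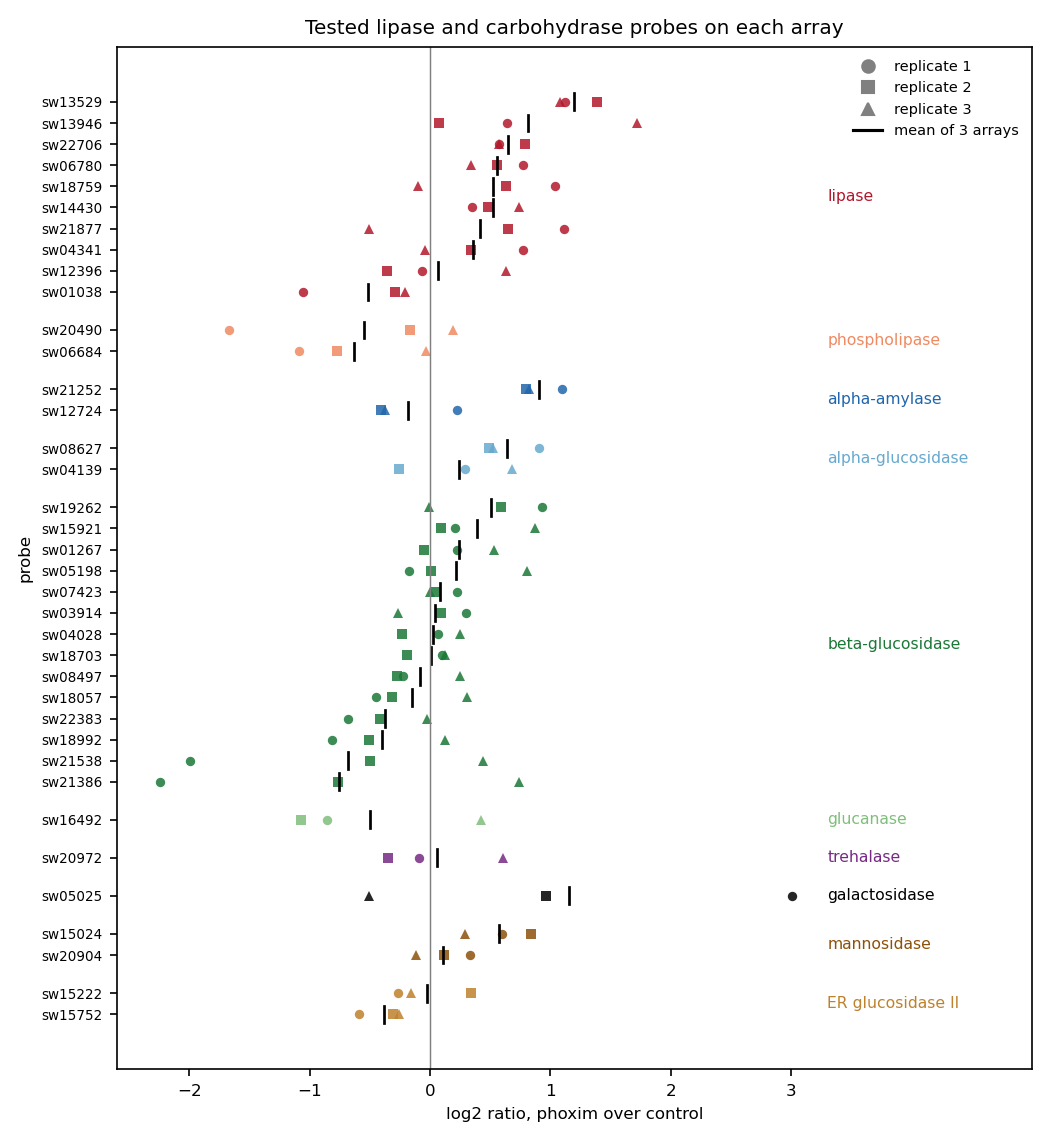
Log2 ratios of phoxim over control (horizontal axis) for the 37 tested member probes (vertical axis), grouped by enzyme class; circles, squares and triangles are replicates 1, 2 and 3, and the bar is their mean. Points of sw13529 lie between 1.08 and 1.39 on all arrays, and those of the beta-galactosidase sw05025 spread from -0.51 to 3.01.

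Most ratios of the lipases were above 0. Of 10 tested lipases, 1 rose and 9 did not pass. Their median log2 ratio was 0.52, beside 0.035 over all tested probes and 0.086 over all tested members. By array, the class median was 0.70, 0.52 and 0.46, and 8, 8 and 6 of the 10 probes were above 0. Such ratios above 0 made up 53.8%, 54.8% and 55.1% of all tested probes on those arrays. The counts include sw21877, which reached the mark through phoxim alone on replicates 1 and 2 and through control alone on replicate 3. It was tested because those channels were high, so its signs are no support for a difference. Turning replicate 2 gave a class median of 0.16, and 0 of the 10 probes were higher on all 3 arrays, against 5 with the header directions.

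Lipase sw13529 has its best matches in a lipase of the moth Samia cynthia ricini and in Bombyx mori lipase-1. Its phoxim intensity was 59612, 59664 and 63318 on replicates 1, 2 and 3, and its control intensity was 20175, 36874 and 20692. All 3 phoxim spots were saturated, lying within 1% of the highest phoxim intensity of their array, whereas no control spot was. The deposited log2 ratios were 1.12, 1.39 and 1.08, and the phoxim channel was the higher on every array. Its mean was 1.20 ± 0.17 (SD, n = 3) with an adjusted p of 0.033 in limma. Saturated spots cannot show their full variation. The SD and the p-value in limma therefore do not measure the spread of the phoxim channel between replicates. Because of the saturation the mean ratio is a bound: with the deposited normalization and the header directions, it was at least 2.29-fold higher after phoxim. This bound moves with the processing, and median centring gave 2.22-fold. The plain quotient of the intensities gave log2 values of 1.56, 0.69 and 1.61, so that the deposited normalization lowered replicates 1 and 3 and raised replicate 2. With replicate 2 turned, the mean was 0.27 with an adjusted p of 1 in limma. The call was also lost without replicate 1 (1.23, adjusted p = 0.071) and without replicate 2 (1.10, adjusted p = 0.46), and it was kept without replicate 3 (1.26, adjusted p = 0.011).

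The other 3 lipases with a saturated spot did not pass. Their SD and p-values carry the same limit on the arrays where the phoxim spot was saturated. For sw22706, whose best match is Drosophila Lipase 1, the phoxim intensity was 59612, 53620 and 63318 and the control intensity 31655, 38713 and 39086. Its log2 ratios were 0.57, 0.78 and 0.57, with a mean of 0.65 ± 0.12 (SD, n = 3) and an adjusted p of 0.14 in limma. Phoxim was the higher channel on each array, and the phoxim spot was saturated on 2 of them. Its mean was 0.12 with replicate 2 turned.

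Bombyx mori lipase-1 itself (LOC692513, sw14430) had phoxim intensities of 59612, 42294 and 63318 and control intensities of 36972, 52813 and 26522. On replicate 2 the control channel was the brighter before normalization, with a log2 quotient of -0.32, and the deposited ratio there was above 0. The deposited log2 ratios were 0.35, 0.48 and 0.73, a mean of 0.52 ± 0.20 (SD, n = 3) with an adjusted p of 0.23. Phoxim spots of lipase-1 were saturated on 2 arrays. The annotated triacylglycerol lipase (LOC692849, sw18759) had phoxim intensities of 59612, 44918 and 45847 and control intensities of 23383, 40598 and 42766. Its log2 ratios were 1.04, 0.63 and -0.10, above 0 on replicates 1 and 2 and below 0 on replicate 3, and 1 phoxim spot was saturated. The mean of sw18759 was 0.52 ± 0.58 with an adjusted p of 0.35. Turning replicate 2 gave means of 0.20 for sw14430 and 0.10 for sw18759.

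**Figure D2:**
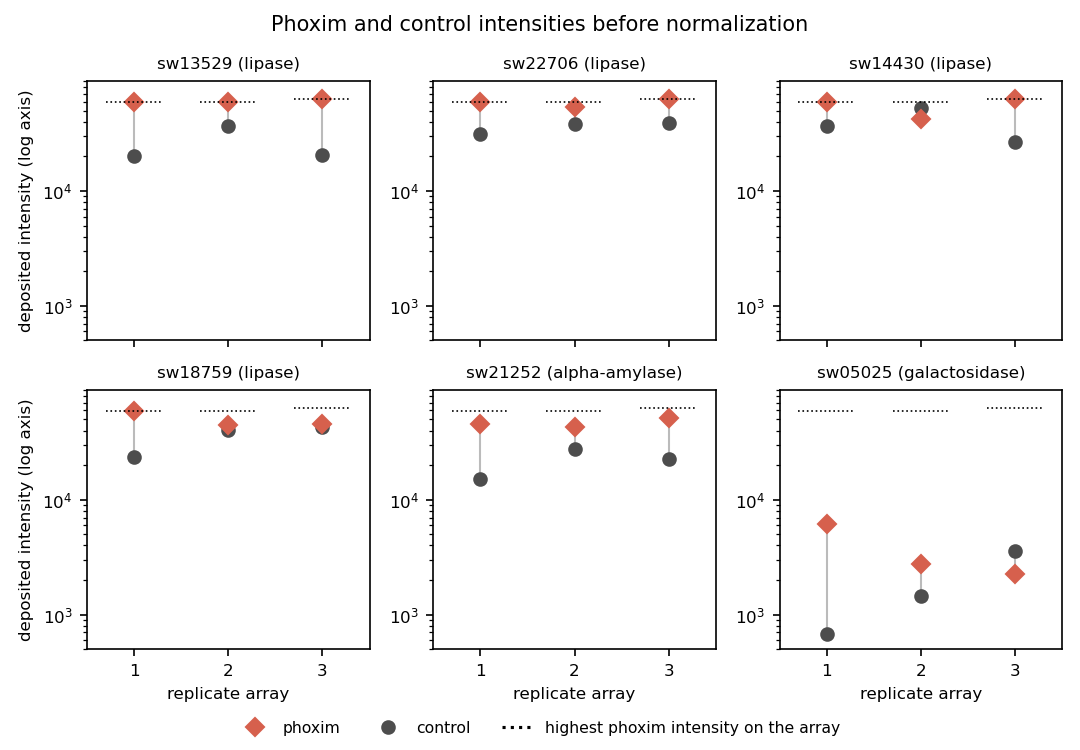
Deposited intensities before normalization (vertical log axis) of 4 lipases, the alpha-amylase sw21252 and the beta-galactosidase sw05025 on replicate arrays 1, 2 and 3; diamonds are phoxim, circles control, and the dotted line is the highest phoxim intensity on the array. All 3 phoxim spots of sw13529 lie at that line, and for sw14430 the control spot of replicate 2 lies above the phoxim spot.

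Of the lipases without a saturated spot, sw06780, matched to a lipase of the moth Antheraea yamamai, had phoxim intensities of 2645, 3143 and 2511 and control intensities of 1589, 2063 and 2213. Its log2 ratios of 0.77, 0.56 and 0.34 were all above 0, and the mean of 0.56 ± 0.22 (SD, n = 3) had an adjusted p of 0.21. A further probe matched to lipase-1, sw13946, gave 0.64, 0.073 and 1.72, again above 0 on each array but far apart, with a mean of 0.81 ± 0.84 and an adjusted p of 0.29. The opposite direction was seen for sw01038, a second match to the Antheraea lipase. Its phoxim intensities were 4955, 7235 and 7023 against 8848, 10390 and 9788 in control, and its log2 ratios of -1.06, -0.29 and -0.20 had a mean of -0.52 ± 0.47 and an adjusted p of 0.32. The control channel was the higher one on each array. For these 3 probes the means were 0.19 (sw06780), 0.76 (sw13946) and -0.32 (sw01038) with replicate 2 turned. For the remaining 3 lipases (sw04341, sw12396 and sw21877) the mean log2 ratios ranged from 0.070 to 0.42, the sign differed between arrays, and the lowest adjusted p was 0.42.

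The 4 probes whose best match named lipase-1 (sw13529, sw14430, sw13946 and sw04341) had a median log2 ratio of 0.67. On replicates 1 and 2 all 4 were above 0, and on replicate 3 it was 3 of 4. Before normalization, control was the brighter channel on replicate 2 for sw14430 (log2 quotient -0.32) and sw04341 (-0.557). Phoxim was the brighter there for sw13529 (0.694) and sw13946 (0.007). The files assign each to a gene model of its own and carry no cross-hybridization note for any member. Since these models match the same protein, how far each probe is specific for 1 of them was not tested.

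Both tested phospholipases had mean ratios below 0, and neither passed in limma, with 1 at an unadjusted p below 0.05. Lysophospholipase (LOC692950, sw06684), which removes the remaining fatty acid from lysophospholipids, had phoxim intensities of 1466, 2125 and 2797 and control intensities of 2995, 3160 and 3188. Control was the higher channel on each array, by little on replicate 3, where the log2 ratio was -0.033 after -1.09 and -0.77 on replicates 1 and 2. The mean was -0.63 ± 0.54 (SD, n = 3) with an adjusted p of 0.28. A probe matched to human neutral sphingomyelinase, sw20490, which the word rule admits through another name of that enzyme, gave -1.67, -0.16 and 0.19. Its arrays differed in sign, and the mean of -0.55 ± 0.99 had an adjusted p of 0.46. The phoxim intensities of sw20490 were 208, 528 and 637 and its control intensities 561, 476 and 661. On replicate 1 it reached the mark through the control channel alone, so its sign there is no support for a difference. Without replicate 1 its mean log2 ratio was 0.013. Turning replicate 2 gave means of -0.12 for sw06684 and -0.44 for sw20490.

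Of the 2 tested alpha-amylases, neither passed in limma (1 had an unadjusted p below 0.05), and their means differed in sign. The probe sw21252 matches the alpha-amylase of the moth Spodoptera frugiperda, a starch-cutting enzyme. Its phoxim intensity was 46100, 42816 and 51930 and its control intensity 15268, 27577 and 22579, with no saturated spot. The log2 ratios of 1.10, 0.80 and 0.83 were above 0 on each array, and phoxim and control intensities did not overlap. The mean was 0.91 ± 0.17 (SD, n = 3), a 1.88-fold difference, with an adjusted p of 0.075 in limma. The mean was 0.38 with replicate 2 turned. Its mean passed in limma under loess normalization of the intensities (1.10, adjusted p = 0.048) and without replicate 3 (0.95, adjusted p = 0.022). It did not pass without replicate 1 (0.81, adjusted p = 0.24), without replicate 2 (0.96, adjusted p = 0.51), with a dye term (0.88, adjusted p = 0.39), or with replicate 2 turned or all gene probes kept, where the adjusted p was 1. Together with sw13529 it was 1 of 2 members that the authors' own marks put at 1.5-fold or more higher on all 3 arrays, where the share over all tested probes was 2.09%. No member carried the mark for lower on all 3 arrays, where that share was 0.479%. The other amylase, sw12724, matched to a predicted dog salivary amylase, gave 0.23, -0.41 and -0.37 with a mean of -0.18 ± 0.36 and an adjusted p of 0.65, and its mean was 0.087 with replicate 2 turned.

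Both tested alpha-glucosidases had means above 0 and neither passed in limma, with 1 at an unadjusted p below 0.05. For sw08627, whose best match is a bacterial alpha-glucosidase, the phoxim intensities were 6800, 6772 and 6595 and the control intensities 4303, 4864 and 6591. The phoxim intensity hardly varied, and on replicate 3 the control intensity was nearly equal to it. Its log2 ratios were 0.90, 0.49 and 0.52, a mean of 0.64 ± 0.23 (SD, n = 3) with an adjusted p of 0.16. On replicate 3 the plain log2 quotient was 0.001, so the 0.52 there came with the deposited normalization. Under loess normalization the mean of sw08627 was 0.34 with an adjusted p of 0.56 in limma. The probe sw04139, matched to mouse sucrase-isomaltase, the sugar-splitting enzyme of the mammalian gut surface, gave 0.29, -0.26 and 0.68, with a mean of 0.24 ± 0.47 and an adjusted p of 0.60. The means were 0.31 and 0.41 with replicate 2 turned. No gene probe had the word fructofuranosidase in its text.

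Beta-glucosidases were the largest class, with 15 members. Of the 14 tested, none passed in limma and none had an unadjusted p below 0.05, and the median log2 ratio was 0.019. Class medians by array were -0.056, -0.21 and 0.25, with 7, 5 and 11 of the 14 probes above 0. Replicate 3 thus held the most probes above 0 in this class, whereas it held the fewest among the lipases. The difference between the 2 classes was not tested. The beta-glucosidase counts include sw07423 and sw03914, which reached the mark through phoxim alone on replicates 1 and 2 and control alone on replicate 3. Their signs are no support for a difference. The class median was 0.080 with replicate 2 turned.

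Among the beta-glucosidases, sw18703 had phoxim intensities of 17041, 15611 and 19594 and control intensities of 18615, 24756 and 21098. Its log2 ratios of 0.099, -0.19 and 0.12 lay on both sides of 0, and its mean was 0.011 ± 0.17 (SD, n = 3). A probe with the same best match, sw18992, gave -0.81, -0.51 and 0.12, a mean of -0.40 ± 0.48 with an adjusted p of 0.41. The annotated glucosidase (LOC692627, sw08497) gave -0.22, -0.27 and 0.25, a mean of -0.082 ± 0.28 with an adjusted p of 0.84. All 3 differed in sign between arrays in the deposited ratios. Before normalization, control was the brighter channel on every array for sw18703 (log2 quotients -0.127, -0.665 and -0.107) and sw18992 (-0.97, -0.883 and -0.224). For sw08497 the quotients were -0.262, -0.765 and 0.226. Under loess normalization the means of sw18703 and sw18992 were -0.34 and -0.71. Turning replicate 2 gave means of 0.14 for sw18703, -0.060 for sw18992 and 0.099 for sw08497.

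The lowest mean of the class belonged to sw21386, with phoxim intensities of 685, 2946 and 2825 and control intensities of 2573, 4885 and 1941. Its log2 ratio was -2.24 on replicate 1, -0.77 on replicate 2 and 0.74 on replicate 3, so that the control excess of replicates 1 and 2 was a phoxim excess on replicate 3. The mean of -0.76 ± 1.49 had an adjusted p of 0.48. Without replicate 3 it was -1.50 (adjusted p = 0.024), without replicate 1 it was -0.014 (adjusted p = 1), and without replicate 2 it was -0.75 (adjusted p = 0.88). The highest mean belonged to sw19262, with log2 ratios of 0.93, 0.59 and -0.006 and a mean of 0.50 ± 0.47 (adjusted p = 0.33). The turned means were -0.24 for sw21386 and 0.11 for sw19262. The other 9 tested beta-glucosidases had means of -0.68 to 0.39 and adjusted p-values of 0.38 or more. Best matches were shared widely in this class: 10 members, 9 of them tested, matched the same Spodoptera frugiperda beta-glucosidase precursor. Those 9 had a median of 0.011, and 1 of them had the same sign on all 3 arrays.

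The single beta-galactosidase probe, sw05025, matched to a lysosomal enzyme of the cat that removes galactose from glycoconjugates, had the widest spread of all tested members. Its phoxim intensity was 6173 on replicate 1, 2771 on replicate 2 and 2270 on replicate 3, and its control intensity was 672, 1450 and 3591. The log2 ratios were 3.01, 0.97 and -0.51, high on replicate 1 and reversed on replicate 3. The mean of 1.16 ± 1.76 (SD, n = 3) had an adjusted p of 0.38, and it was 0.51 with replicate 2 turned. Without replicate 3 it was 1.99 (adjusted p = 0.023), without replicate 1 it was 0.23 (adjusted p = 0.95), and without replicate 2 it was 1.25 (adjusted p = 0.86). The endoglucanase probe sw16492, matched to a bacterial enzyme that cuts cellulose chains, moved the other way. Its log2 ratios were -0.86, -1.07 and 0.42, with control higher on replicates 1 and 2 and phoxim higher on replicate 3. The mean was -0.50 ± 0.81 with an adjusted p of 0.44, and with replicate 2 turned it was 0.21.

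Trehalase (LOC693027, sw20972) had phoxim intensities of 905, 958 and 2339 and control intensities of 963, 1046 and 1581. Both channels were higher on replicate 3 than on replicates 1 and 2. Its log2 ratios of -0.091, -0.35 and 0.61 gave a mean of 0.057 ± 0.49 (SD, n = 3) and an adjusted p of 0.92. The mean was 0.29 with replicate 2 turned.

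Members with a role in the trimming of glycoprotein sugar chains did not pass either, with 1 of the 4 (sw15024) at an unadjusted p below 0.05 in limma. Both tested mannosidases match sea urchin predictions of putative alpha-mannosidases. The probe sw15024 had phoxim intensities of 500, 634 and 477 and control intensities of 365, 315 and 461. On replicates 1 and 2 it reached the mark of 400 through the phoxim channel alone, so that it was tested because that channel was high there, and its sign on those arrays is no support for a difference. Its log2 ratios were 0.60, 0.84 and 0.29, with a mean of 0.58 ± 0.28 and an adjusted p of 0.21. The probe sw20904 had 0.33, 0.11 and -0.11, with a mean of 0.11 ± 0.22 and an adjusted p of 0.77. A pair of probes match the beta subunit of glucosidase II, which helps to keep the enzyme in the endoplasmic reticulum. One of them, sw15752, gave -0.59, -0.31 and -0.25, below 0 on each array, with a mean of -0.39 ± 0.18 and an adjusted p of 0.33. The other, sw15222, gave -0.26, 0.34 and -0.16, with a mean of -0.027 ± 0.32 and an adjusted p of 0.96. The 2 probes for this subunit thus differed in sign on replicate 2. The turned means were 0.016 and 0.034 for the mannosidases sw15024 and sw20904, and -0.18 and -0.25 for sw15752 and sw15222.

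Members marked on 1 or 2 arrays were close to the limit. Phospholipase C-beta (sw18406), a signalling enzyme, was marked on 2 arrays, with phoxim intensities of 394, 520 and 229 and control intensities of 370, 145 and 454. The beta-glucosidase sw01530, also marked on 2 arrays, had 245, 436 and 255 in phoxim and 474, 254 and 339 in control. In both probes the brighter channel changed between arrays. The acid alpha-glucosidase sw18246, a lysosomal type, had 543, 300 and 207 in phoxim and 250, 311 and 358 in control. The alpha-mannosidase II probe sw11824, for a Golgi enzyme, had 295, 412 and 253 in phoxim and 360, 451 and 283 in control. The phospholipase A2 probe sw00954 reached 406 in 1 channel of 1 array. In 5 members, 1 of them tested (the lipase sw21877), a channel was at or below the 95th percentile of the negative control spots on at least 1 array.

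Taking lipases with phospholipases, 12 probes were tested and their median log2 ratio was 0.47, with array medians of 0.61, 0.41 and 0.27. The other 25 tested members are grouped as carbohydrases. They include the glucosidase II beta subunit and mannosidase probes, which have a role in the trimming of glycoprotein sugar chains. The carbohydrases had a median of 0.042, with array medians of 0.099, -0.19 and 0.25. With replicate 2 turned, these medians were 0.13 and 0.099. No test of the difference between the 2 groups was made.

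As over all tested probes, replicate 3 was the array least correlated with the others. Across the 37 tested members, the log2 ratios of replicates 1 and 2 correlated at r = 0.79, those of replicates 1 and 3 at -0.07 and those of replicates 2 and 3 at 0.04. These probes share arrays and, in part, best matches, so the values are descriptive. When replicate 3 was left out, 11 members passed at an adjusted p of 0.05 in limma, 7 higher and 4 lower, while 11.9% of all tested probes passed, 7.14% higher and 4.72% lower. The 7 higher were sw05025 (1.99), sw13529 (1.26), sw21252 (0.95), sw21877 (0.88), sw18759 (0.83), sw19262 (0.76) and sw15024 (0.72), in log2 units. The 4 lower were sw06684 (-0.93), sw16492 (-0.96), sw21538 (-1.24) and sw21386 (-1.50). Of the 7, sw21877 (phoxim 583 and 718, control 301 and 323) and sw15024 carried the mark on both arrays through the phoxim channel alone. These had to be higher there to be tested, and their calls are no support for a difference. On these 2 arrays the dyes are opposite per the headers and the same per the labels.

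**Figure D3:**
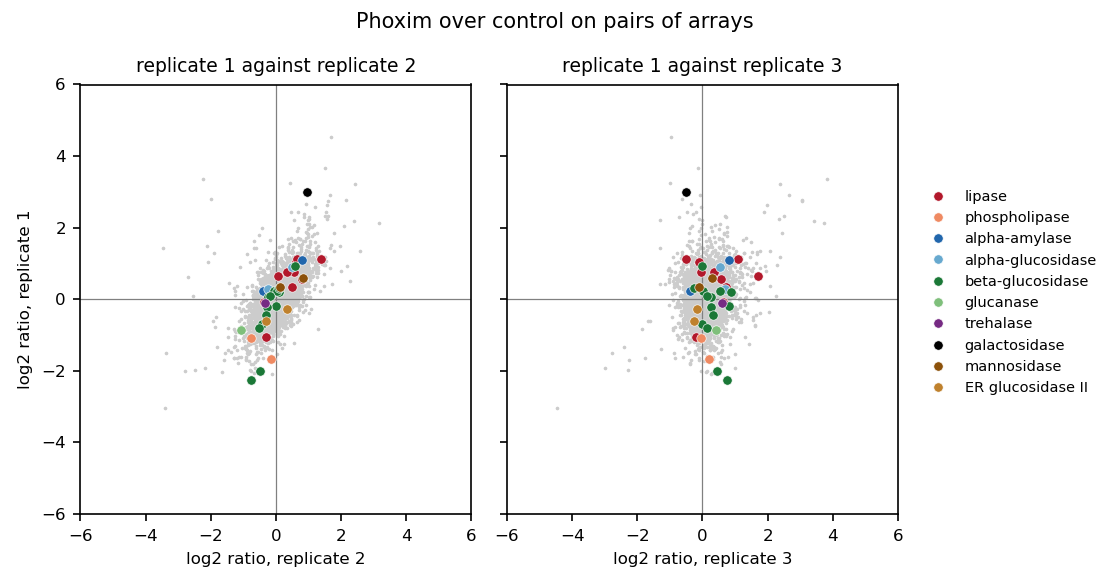
Log2 ratio of phoxim over control on replicate 1 (vertical axis) against replicate 2 (left) and replicate 3 (right); grey points are all tested probes and coloured points the 37 tested members by class. Members lie along a diagonal on the left (r = 0.79) and show no slope on the right (r = -0.07).

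The ratio also varied with intensity. Of all tested probes, 103 had a mean intensity of 20000 or more, a level chosen after the values were seen, and 27 of these had a saturated spot. Their median log2 ratio was 0.30 and 41.7% of them were higher on all 3 arrays, beside 0.035 and 23.0% over all tested probes. Of the members, 6 were in this range: the lipases sw13529, sw22706, sw14430, sw18759 and sw04341 and the amylase sw21252. Their median was 0.58 and 4 of the 6 were higher on all 3 arrays. Without the 4 members that had a saturated spot, the median of the remaining 33 was 0.057. These 33 include the 25 carbohydrases, whose median was 0.042, so 0.057 is not a value for the lipases. The lipases without a saturated spot had means of 0.81 (sw13946), 0.56 (sw06780), 0.42 (sw21877), 0.35 (sw04341), 0.070 (sw12396) and -0.52 (sw01038). The part of intensity and saturation in the lipase values was not tested.

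**Figure D4:**
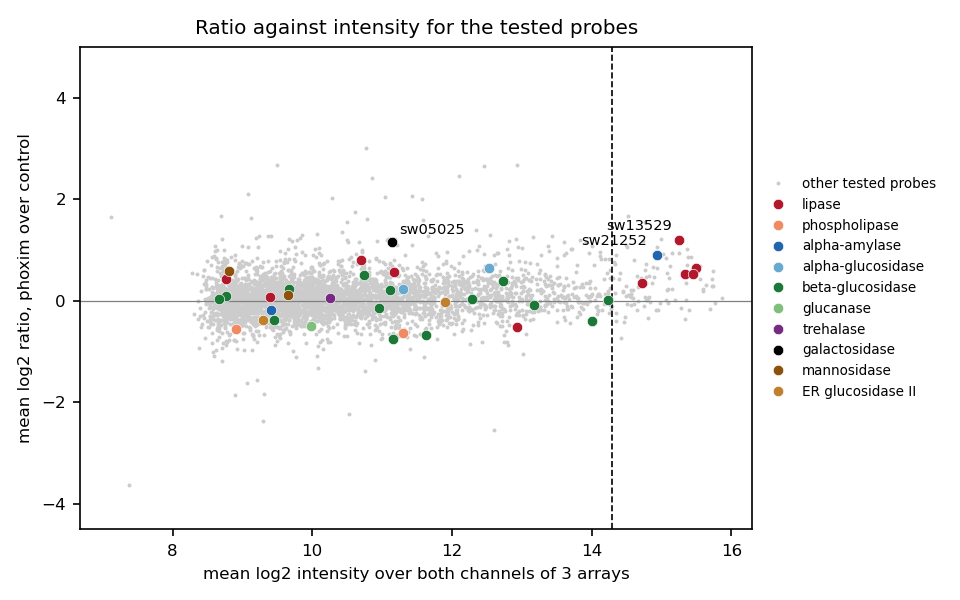
Mean log2 ratio of phoxim over control (vertical axis) against mean log2 intensity over both channels (horizontal axis) for the tested probes; grey points are other probes and coloured points members by class. Right of the dashed line, at an intensity of 20000, the 6 members all lie above 0, and the median of all 103 probes there is 0.30.

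Other genes of digestion and of nutrient handling give the setting. Of 122 digestive protease probes, 42 were tested, 3 rose, 1 fell and 38 did not pass, with a median log2 ratio of 0.22. Over all tested probes, 0.505% rose and 0.177% fell. With replicate 2 turned, none passed in limma and the protease median was 0.15. A chymotrypsin-like protease (LOC732967, sw19184) gave log2 ratios of 1.26, 1.27 and 1.00, a mean of 1.18 ± 0.15 (adjusted p = 0.033). A trypsin precursor, sw02096, gave -1.49, -3.36 and -2.79, a mean of -2.55 ± 0.96 (adjusted p = 0.032 in limma). Sugar handling after digestion (hexokinase, sugar and trehalose transporters and related enzymes) had 5 tested probes of 48, of which none passed in limma and 0 had an unadjusted p below 0.05, and a median of 0.009. Lipid handling after digestion (fatty acid binding, acyl-CoA enzymes, lipophorins and related proteins) had 15 tested probes of 56, of which none passed in limma and 3 had an unadjusted p below 0.05, and a median of -0.059. Among its probes with ratios above 0 the lowest p belonged to acyl-coenzyme A dehydrogenase (Acade, sw09449), with 0.39, 0.46 and 0.46, a mean of 0.44 ± 0.041 and an adjusted p of 0.27.

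By annotation, the 42 members belong to 42 gene models. A gene symbol was given for 5 of them, and all 5 gene identifiers were found in the RefSeq gene table. Gene ontology terms were attached to 33 members, with carbohydrate metabolism for 19 and lipid metabolism for 9, and expressed sequence tags were listed for 20. The best match was a Bombyx mori protein for 8 members. Most names are therefore names by similarity to another species.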

How the data were processed

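RNA of phoxim-treated and control midguts was co-hybridised on 3 arrays. Per the file headers, each deposited array file holds a Cy5 and a Cy3 intensity per spot and a ratio of phoxim over control. The deposited ratio differs from the plain quotient of the intensities by an amount that varies with intensity, so it was taken as normalized by the authors. The sources used here do not name the method, the scanner or a genome build. The deposited value table holds log2 values equal to the log2 of that ratio to within 4.9e-09, with column medians of 0.040, -0.021 and 0.016, so its scale, centring and direction are those of the ratio.

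Gene probes marked on all 3 arrays (3964) entered an intercept-only model of the log2 ratio (limma 3.58.1, R 4.3.3, eBayes without trend, two-sided), with Benjamini-Hochberg adjustment over all of them. The 677 positive and 382 negative control spots were left out. Spots within 1% of the maximum of their channel and array were counted as saturated. The fit was also run on simulated normal values with a spread taken from the tested probes. These values held no dye effect, saturation or turned array, so that run cannot bear on those limits.

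The members and lists were chosen with earlier results of these data known. Named members were those past the threshold, with a saturated spot or a symbol, the 3 brightest and the highest and lowest of each class, those of 1 sign with an unadjusted p below 0.05, and the brightest not tested of each class. Alternatives changed the direction of replicate 2, the intensity filter, the normalization, centring, scaling, variance trend and dye term, and left out each array. The number of arrays limits the precision.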

Additional observations from a re-analysis of the deposited data

How the results depend on the processing

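Only 3 arrays limit every value, and the calls depend on the direction of replicate 2. Called probes over all tested probes numbered 27. They numbered 0 with replicate 2 turned (29 at an unadjusted p below 0.05 in limma), 0 with all gene probes kept (450 unadjusted), 0 with a dye term (348 unadjusted), 1 after scaling between arrays, 16 with both channels at the mark level, and 4 to 470 with 1 array left out. Called members numbered 1. They numbered 0 with replicate 2 turned (0 unadjusted), 0 with all gene probes kept (2 unadjusted), 0 with a dye term (5 unadjusted), 0 after scaling (11 unadjusted), 2 under loess, and 0 to 11 with 1 array left out. For sw13529 the log2 ratio was 0.27 to 1.25 under the alternatives with all arrays and 1.10 to 1.26 with 1 array left out; its adjusted p was 0.056 after scaling, 0.20 with the dye term, and 1 with replicate 2 turned and with all gene probes kept. The member median of 0.086 ranged from 0.038 to 0.26 with 1 array left out, with 0.26 without replicate 2, and the lipase median of 0.47 was 0.13 with replicate 2 turned and 0.21 to 0.48 with 1 array left out. The carbohydrase median of 0.042 ranged from -0.045 to 0.11 with 1 array left out. The digestive protease median of 0.22 was 0.15 with replicate 2 turned and 0.074 under loess, and the lipid handling median of -0.059 was -0.22 with the dye term and -0.24 to 0.082 with 1 array left out. Signs changed for sw12724 (0.087), sw08497 (0.10) and sw16492 (0.21) with replicate 2 turned, for sw18703 under loess (-0.34), median centring (-0.035) and the dye term (-0.039), and for sw15222 (0.065) and sw20972 (-0.044) with the dye term. With 1 array left out the ranges were -0.21 to 0.093 for sw15222, -0.045 to 0.11 for sw18703, -0.92 to 0.013 for sw20490, -0.25 to 0.012 for sw08497 and -0.22 to 0.26 for sw20972. The cause of these changes was not tested. Each ratio pairs phoxim with control within an array, so the fit is a paired one. No further pairing was modelled, because there is 1 group of arrays.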
